A study of Homo sapiens with 5 samples.

Results

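Keratins KRT7, KRT8, KRT18, KRT19, KRT80 and KRT81 were examined in weakly and strongly adherent cells of the human breast cancer line MDA-MB231. They were taken by gene symbol from the deposited table of raw counts, where 6 of 6 were found among 25382 genes, and all 6 had enough reads to be tested among 13297 genes. The study asked how cells of a single tumour line that hold to a surface with different strength differ in gene expression. Shear stress applied to a heterogeneous culture gave 3 weakly adherent samples, dated 6, 12 and 15 March, and 2 strongly adherent samples, dated 6 and 15 March. All 5 came from the same line, grown in DMEM with serum and antibiotics and with no drug or genetic change named, and 1 RNA library was sequenced from each. Because the shear that separated the cells also defined the groups, cells changed by the shear and cells that differed beforehand cannot be told apart. Separate cultures are not named in the labels. The p-values therefore reflect the spread among these 5 samples only, part of which may be technical.

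Keratins are the intermediate filament proteins of epithelial cells. A filament is built from obligate pairs of a type I and a type II chain, and simple epithelia such as the luminal layer of the breast use mainly KRT8 with KRT18, joined by KRT7 and KRT19. Among the 6 genes, KRT18 and KRT19 encode type I chains and KRT7, KRT8, KRT80 and KRT81 type II chains. KRT80 is a related type II keratin found in many epithelia, and KRT81 is a hair keratin that some breast tumours also express, so neither is a classical keratin of simple epithelium. MDA-MB231 is a triple-negative line of mesenchymal character that has nevertheless kept simple keratins. In these libraries the hormone receptor genes ESR1 and PGR had 0 reads in every library, and ERBB2 had 85.4 to 86.6 CPM in weakly adherent (n = 3) and 82.8 to 93.9 CPM in strongly adherent cells (n = 2). VIM, the mesenchymal filament protein vimentin, averaged 2554 ± 85.1 CPM in weakly adherent (SD, n = 3) and 2699 ± 66.7 CPM in strongly adherent cells (SD, n = 2). CDH1, encoding the epithelial cadherin, averaged 1.36 ± 0.19 CPM in weakly adherent (SD, n = 3) and 1.67 ± 0.56 CPM in strongly adherent cells (SD, n = 2). CPM is a gene's read count per library size, in the usual counts-per-million unit, after scaling by TMM, edgeR's correction for library composition.

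How well a keratin can be counted differs among the 6, because the family has near-identical copies. In GENCODE 29 on GRCh38, 57.2% of the 50-base windows of the KRT81 coding sequence, the length of the reads, also occur in a transcript of another gene, chiefly the hair keratin KRT86 of the same cluster (49.2% of windows), then KRT87P (11.6%), not analysed here, and KRT83 (7.98%). The coding sequences of KRT81 and KRT86 were 94.2% identical over 1454 aligned bases, whereas KRT8 and KRT7 were 76.7% and KRT18 and KRT19 66.6% identical. Of the KRT8 windows 45.6% and of the KRT18 windows 38.8% occur elsewhere, in 37 and 44 other genes, of which 3 and 2 have a row in the count table. KRT7, KRT19 and KRT80 were nearly free of such copies, at 1.33%, 2.09% and 1.22% of windows. A read from a shared window has more than 1 place in the genome, and 16.0% to 16.8% of all deposited reads fell into the class of alignments that were not unique. Levels of KRT8, KRT18 and KRT81 are therefore uncertain. Reads in that class were counted for no gene, so reads of windows shared by KRT81 and KRT86 may be missing from both. Exons of KRT8 and KRT18, which lie on opposite strands, also overlap over 525 bases in that annotation, and how reads there were assigned depends on a strand setting that the labels do not give.
These windows, from GENCODE 29 transcripts, run 5′ to 3′ on the coding strand, and capitals mark bases that differ between both genes. They are shown because they set apart where a KRT81 read can and cannot be told from a KRT86 read. The first pair is identical (KRT81 at chr12:52290217-52290266, minus strand, and KRT86 at chr12:52303120-52303169, plus strand), and the second is the most different window that lies within 1 coding exon of each gene, with 17 of 50 bases differing (KRT81 at chr12:52286383-52286432, minus strand, and KRT86 at chr12:52308468-52308517, plus strand).
KRT81 identical window: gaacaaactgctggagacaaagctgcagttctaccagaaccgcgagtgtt
KRT86 identical window: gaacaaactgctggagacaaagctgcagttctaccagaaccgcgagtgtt
KRT81 most different window: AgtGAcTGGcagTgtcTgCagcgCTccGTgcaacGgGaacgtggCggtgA
KRT86 most different window: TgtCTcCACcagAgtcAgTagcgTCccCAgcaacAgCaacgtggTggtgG
For KRT18, a window that starts at coding base 210 (chr12:52949383-52949432, plus strand) is carried unchanged by 5 other genes, and a read from it could not be placed in KRT18 alone.
KRT18 shared window: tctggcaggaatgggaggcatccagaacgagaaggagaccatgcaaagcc

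**Figure D1:**
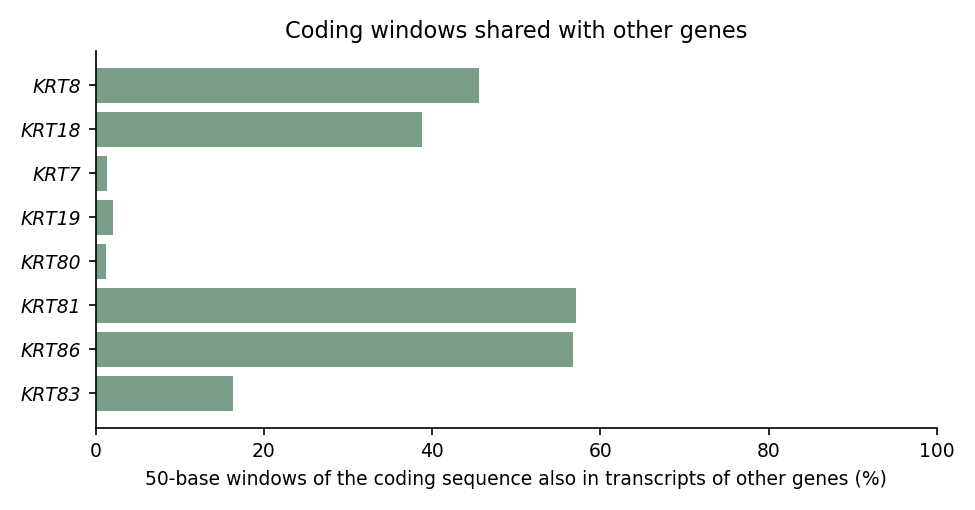
Bars give the percent of 50-base windows of each coding sequence that also occur, on either strand, in a GENCODE 29 transcript of a gene elsewhere in the genome, for the 6 keratins and the hair keratins KRT86 and KRT83. KRT81 (57.2%) and KRT86 (56.8%) have the longest bars, then KRT8 (45.6%) and KRT18 (38.8%), while KRT7, KRT19 and KRT80 reach at most 2.09%.

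In the genome 5 of the 6 genes lie in the type II keratin cluster of chromosome 12, in the order KRT80, KRT7, KRT81, KRT8 and KRT18 (GENCODE 29, GRCh38, from base 52168996 for KRT80 to base 52952901 for KRT18). KRT18 is the only type I gene among those 5. KRT19 lies apart in the type I cluster on chromosome 17 (bases 41523617 to 41528308, minus strand). Counting by the authors was done on another build, hg19, so these coordinates describe the genes and were not used to count. The libraries held 21389951, 19630386 and 21707459 gene reads in weakly adherent cells of 6, 12 and 15 March, and 21492192 and 21673544 in strongly adherent cells of 6 and 15 March. The 6 keratins took 0.203%, 0.189% and 0.207% of gene reads in those weakly adherent libraries and 0.234% and 0.218% in the strongly adherent ones. They supplied 97.5% to 98.1% of the reads of all 55 keratin rows in a library.

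KRT81 fell in weakly adherent cells, and it was the only member of the 6 with a call. It had 640, 652 and 837 reads in weakly adherent cells of 6, 12 and 15 March, against 1149 and 1333 in strongly adherent cells of 6 and 15 March. Scaled to library size this was 30.4, 33.3 and 38.0 CPM in weakly adherent cells and 54.1 and 60.6 CPM in strongly adherent cells. Every weakly adherent library was below both strongly adherent ones, and the gap between the groups was wider than the range within either. The mean was 33.9 ± 3.86 CPM (SD, n = 3) in weakly adherent and 57.3 ± 4.60 CPM (SD, n = 2) in strongly adherent cells, 1.69-fold lower (log2 fold change -0.76, SE 0.10, 95% interval -0.98 to -0.53, edgeR adjusted p = 0.0018). By p it ranked 51 of 13297 genes. For comparison, edgeR called 0.918% of all genes tested lower in weakly adherent cells, 1.77% higher and 2.68% in either direction, at a Benjamini-Hochberg adjusted p under 0.05, against 1 of 6 keratins lower and 0 higher. The 6 were chosen with earlier results of these data known, so this comparison is a description and no test. In bulk RNA, fewer cells that express a gene and less RNA per cell cannot be told apart.

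KRT8 and KRT18, the core pair of simple epithelial filaments, had the most reads of the 6. KRT8 had 607, 573 and 601 CPM in weakly adherent cells of 6, 12 and 15 March, against 728 and 634 CPM in strongly adherent cells of 6 and 15 March. The groups did not overlap, with the strongly adherent cells of 15 March close to the weakly adherent ones and those of 6 March well above. The log2 fold change of KRT8 was -0.20 (SE 0.08, 95% interval -0.37 to -0.03), with an unadjusted p of 0.026 and an edgeR adjusted p of 0.25. With strongly adherent cells of 6 March left out it was -0.098 (edgeR adjusted p = 0.86). KRT18 had 524, 485 and 500 CPM in weakly adherent cells of 6, 12 and 15 March, against 557 and 520 CPM in strongly adherent cells of 6 and 15 March. These groups overlapped, and the log2 fold change was -0.10 (SE 0.07, 95% interval -0.26 to 0.06, edgeR adjusted p = 0.65), or -0.048 with the same library left out.

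KRT7, the type II partner that marks many ductal epithelia, was lower in weakly adherent cells without passing the test. It had 336, 297 and 342 CPM in weakly adherent cells of 6, 12 and 15 March, against 427 and 381 CPM in strongly adherent cells of 6 and 15 March. All weakly adherent libraries were below both strongly adherent ones. The log2 fold change was -0.31 (SE 0.08, 95% interval -0.50 to -0.13), which is 1.24-fold lower, with an edgeR adjusted p of 0.074. With the date as a block in edgeR, which left 1 residual degree of freedom, the log2 fold change was -0.25 (adjusted p = 0.0016). In that fit 5.28% of all genes were called lower and 6.2% higher. Its SEs for KRT7, KRT8, KRT18, KRT19 and KRT80 were nearly the same, at 0.064 to 0.065. The p-values with the date block, here and below, rest mostly on spread pooled over genes and little on each gene's own. DESeq2's Wald test also put KRT7 past the threshold (log2 fold change -0.32, adjusted p = 0.034), while with strongly adherent cells of 6 March left out the edgeR value was -0.23 (adjusted p = 0.52).

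KRT19, the smallest type I keratin, and KRT80 had groups that overlapped. KRT19 had 263, 234 and 293 CPM in weakly adherent cells of 6, 12 and 15 March, against 290 and 287 CPM in strongly adherent cells of 6 and 15 March. Its highest and its lowest library were both weakly adherent. The log2 fold change was -0.13 (SE 0.09, 95% interval -0.32 to 0.06, edgeR adjusted p = 0.60). It was -0.054 with weakly adherent cells of 12 March left out and -0.21 with those of 15 March left out. KRT80 had 304, 269 and 269 CPM in weakly adherent cells of 6, 12 and 15 March, against 316 and 264 CPM in strongly adherent cells of 6 and 15 March. Here the libraries of 6 March were high and the others low in both groups, and the log2 fold change was -0.05 (SE 0.09, 95% interval -0.24 to 0.15, edgeR adjusted p = 0.91). The intervals of KRT18, KRT19 and KRT80 still allow a difference of up to 0.26, 0.32 and 0.24 on the log2 scale towards lower values.

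**Figure D2:**
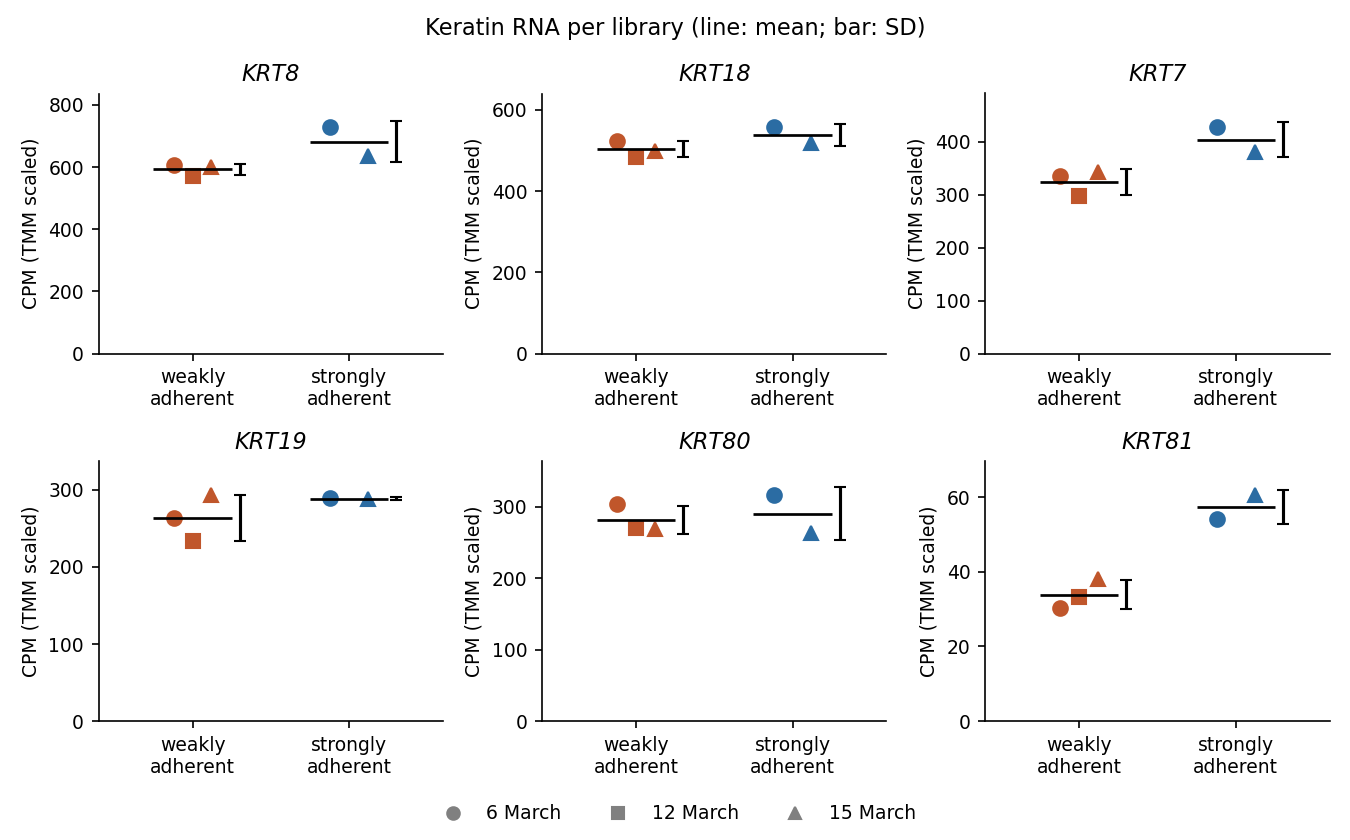
Each panel gives a keratin's TMM-scaled CPM (vertical axis from 0) in the 3 weakly adherent (orange) and 2 strongly adherent libraries (blue), with the date as marker shape, the mean as a line and the SD as a bar. KRT81 sits between 30.4 and 38.0 CPM in weakly adherent and at 54.1 and 60.6 CPM in strongly adherent cells, while KRT18, KRT19 and KRT80 overlap between the groups.

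All 6 keratins had a negative log2 fold change, with a median of -0.16, beside a median of -0.00054 over all genes tested. For 3 of the 6 (KRT8, KRT7 and KRT81) every weakly adherent library lay below both strongly adherent ones, as it did for 14.5% of all genes tested. The same 3 had an unadjusted p under 0.05, which 6.35% of all genes had in that direction. Summed over the 6, the keratins reached 2064, 1891 and 2043 CPM in weakly adherent cells of 6, 12 and 15 March and 2371 and 2147 CPM in strongly adherent cells of 6 and 15 March. Both strongly adherent sums were above all 3 weakly adherent ones, and KRT81 adds little to them.

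Within shared dates, where each group has 1 library and no test is possible, KRT81 differed by -0.83 on 6 March and -0.67 on 15 March on the log2 CPM scale. KRT7 differed by -0.35 and -0.16, KRT8 by -0.26 and -0.08, and KRT18 by -0.09 and -0.06, on 6 and 15 March in that order. KRT19 (-0.14 on 6 March, 0.03 on 15 March) and KRT80 (-0.06 on 6 March, 0.03 on 15 March) had opposite signs on the dates. Thus 4 of 6 were lower on both dates, which 31% of all genes tested also were. The difference was larger on 6 March for each of those 4.

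**Figure D3:**
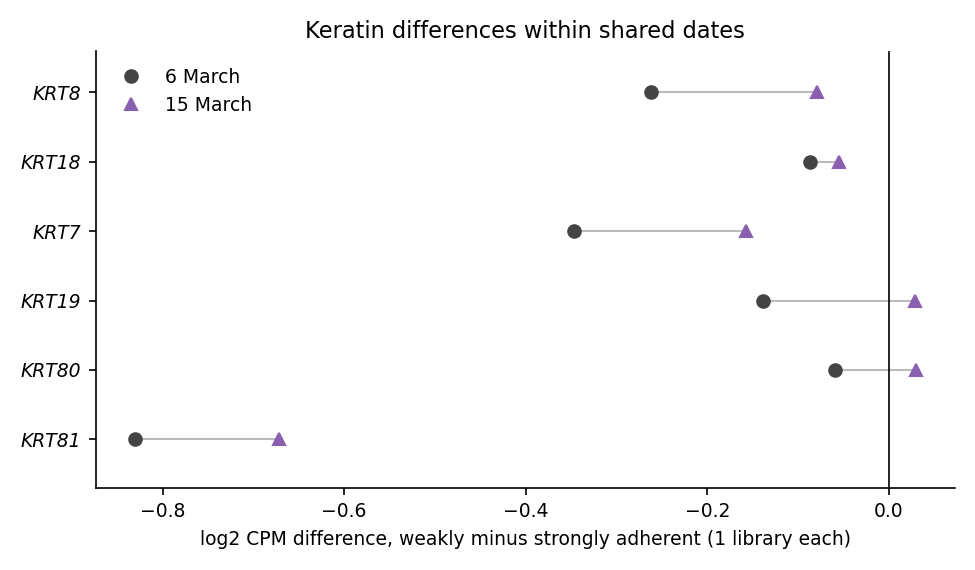
For each keratin the points give the log2 CPM of the weakly minus the strongly adherent library of 6 March (circle) and of 15 March (triangle), with a vertical line at 0. KRT81 lies at -0.83 and -0.67, far left of the other 5, and KRT19 and KRT80 cross 0 on 15 March.

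Levels were also compared between dates. In the 4 libraries of 6 and 15 March, with adhesion as a covariate, KRT80 was lower on 15 than on 6 March (-0.22 on the log2 scale, SE 0.07; edgeR adjusted p = 0.017) and KRT81 was higher (0.23, SE 0.08, adjusted p = 0.043), where 9.29% of all genes tested were called. The other 4 were not called, with adjusted p from 0.34 to 0.60. These 4 libraries leave 1 residual degree of freedom, and the SEs of KRT7, KRT8, KRT18, KRT19 and KRT80 were all 0.068. The edgeR p-values between dates thus also rest mostly on spread pooled over genes. With DESeq2's Wald test neither call stood (adjusted p = 0.16 for KRT80 and 0.54 for KRT81).

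Levels can be set between genes only per length. Per kb of the annotated transcript with the longest coding sequence, KRT8 averaged 352 ± 10.8 CPM per kb in weakly adherent (SD, n = 3) and 404 ± 39.1 CPM per kb in strongly adherent cells (SD, n = 2), the highest of the 6 in all 5 libraries. KRT18 followed in all 5 libraries with 322 ± 12.8 CPM per kb in weakly adherent (SD, n = 3) and 345 ± 16.9 CPM per kb in strongly adherent cells (SD, n = 2). KRT7 (185 ± 13.9 in weakly, n = 3, and 230 ± 18.4 in strongly adherent cells, n = 2, in CPM per kb with SD) and KRT19 (190 ± 21.3 in weakly, n = 3, and 208 ± 1.14 in strongly adherent cells, n = 2) came next and changed places between libraries. KRT80 followed with 72.7 ± 5.12 CPM per kb in weakly adherent (SD, n = 3) and 75.1 ± 9.63 CPM per kb in strongly adherent cells (SD, n = 2). KRT81 was lowest with 17.6 ± 2.00 CPM per kb in weakly adherent (SD, n = 3) and 29.7 ± 2.38 CPM per kb in strongly adherent cells (SD, n = 2). Per kb of coding sequence instead, KRT8 and KRT18 were level in weakly adherent cells (387 and 390 CPM per kb), and KRT80 came close to KRT19 (207 and 220 CPM per kb in weakly adherent cells). How many reads of shared windows KRT8, KRT18 and KRT81 lost cannot be read from the table, so their places in this order are uncertain.

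A ratio of reads within a library does not depend on its depth. Reads of KRT8 stood to those of its partner KRT18 as 1.16, 1.18 and 1.20 in weakly adherent cells of 6, 12 and 15 March, against 1.31 and 1.22 in strongly adherent cells of 6 and 15 March. The groups did not overlap, and the mean log2 ratio was 0.10 lower in weakly adherent cells, as the values 0.24 ± 0.03 in weakly adherent (SD, n = 3) and 0.34 ± 0.07 in strongly adherent cells (SD, n = 2) show. A two-sided exact permutation test over the 5 libraries gave p = 0.1, the smallest that 3 against 2 samples allow, so the test could not reach 0.05. Per kb of transcript, the 4 type II keratins summed to 1.23, 1.24 and 1.21 times the 2 type I keratins in weakly adherent cells of 6, 12 and 15 March, and to 1.39 and 1.28 times in strongly adherent cells of 6 and 15 March.

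KRT81 was lower relative to KRT8 as well. For each KRT8 read there were 0.0501, 0.0582 and 0.0633 KRT81 reads in weakly adherent cells of 6, 12 and 15 March, against 0.0743 and 0.0955 in strongly adherent cells of 6 and 15 March. KRT86, the hair keratin with which KRT81 shares the identical window printed above, had 66, 65 and 88 reads in weakly adherent cells of 6, 12 and 15 March, against 99 and 81 in strongly adherent cells of 6 and 15 March. Its groups overlapped (-0.25 on the log2 scale, SE 0.19; edgeR adjusted p = 0.66). KRT81 reads exceeded KRT86 reads by 9.70, 10.0 and 9.51 times in weakly adherent cells of 6, 12 and 15 March and by 11.6 and 16.5 times in strongly adherent cells of 6 and 15 March. The counts do not show which windows the KRT81 reads came from.

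**Figure D4:**
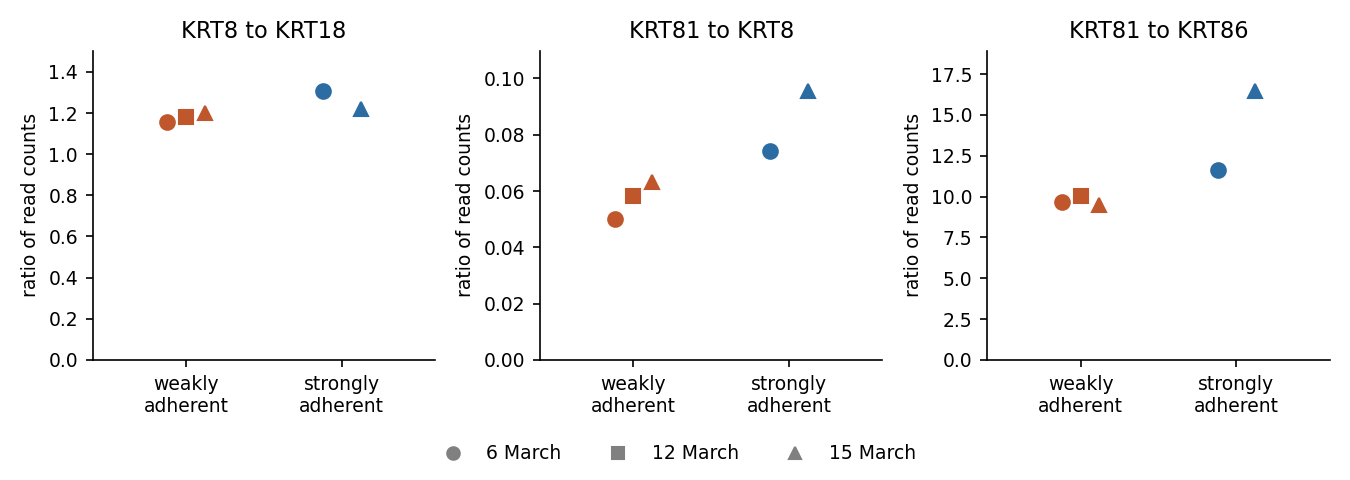
Points give the ratio of read counts of KRT8 to KRT18, KRT81 to KRT8 and KRT81 to KRT86 (vertical axes from 0) in each weakly adherent (orange) and strongly adherent (blue) library, with the date as marker shape. In all 3 panels every weakly adherent library is below both strongly adherent ones, by least for KRT8 to KRT18 (1.20 against 1.22 on 15 March).

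Of the 49 other keratin rows, 32 had 0 reads in all libraries, 12 had fewer than 50 reads over the 5 libraries, and 5 were tested. KRT17, a type I keratin of basal and stressed epithelium, had few reads in all libraries and fewest in weakly adherent cells. It was named after its values were seen, since its mean of 0.72 CPM is below the minimum of 2 CPM set for naming. It had 6, 6 and 8 reads in weakly adherent cells of 6, 12 and 15 March, against 17 and 41 in strongly adherent cells of 6 and 15 March (-2.05 on the log2 scale, SE 0.44; edgeR adjusted p = 0.027). KRT17 passed the read filter only through the strongly adherent libraries, where it is higher, so its p-value is no independent support for a fall. With a filter of at least 1 CPM in 2 libraries it was not tested. Leaving out strongly adherent cells of 15 March, the log2 fold change was -1.31 (adjusted p = 0.38), and without any of the weakly adherent libraries of 6, 12 and 15 March the adjusted p was 0.052, 0.084 and 0.089, in that order. The other tested keratins were KRT10, a keratin of stratified epithelium (log2 fold change 0.03, SE 0.09), KRT15, a basal keratin (0.40, SE 0.18, adjusted p = 0.34), KRT86, and the hair keratin KRT34 (-0.66, SE 0.30, adjusted p = 0.34), which at a mean of 1.03 CPM is also below that minimum. Thus 1 of 5 other tested keratins was called, beside 2.68% of all genes tested in either direction. That call was KRT17, which entered the test through the group where it is higher. These shares therefore do not show that other keratins differ from all genes. KRT5 and KRT14, the basal pair of stratified epithelium, had 4 and 2 reads in all.

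Keratin filaments are tied to the membrane by desmosomes and hemidesmosomes through plakin linkers. Of 16 genes of desmosomes and keratin linkers, 13 were tested, 3 rose and 0 fell, with a median log2 fold change of 0.08. Over all genes tested, 1.77% were called higher and 0.918% lower. DSP, encoding desmoplakin, which anchors keratin at desmosomes, had 215, 197 and 206 CPM in weakly adherent cells of 6, 12 and 15 March, against 143 and 158 CPM in strongly adherent cells of 6 and 15 March (0.45 on the log2 scale, SE 0.08; edgeR adjusted p = 0.0075). DST, encoding the plakin dystonin, rose by 1.19 on the log2 scale (SE 0.09, adjusted p = 5.5e-05) and PLEC, encoding plectin, by 0.34 (SE 0.08, adjusted p = 0.043). Their coding sequences are long, with 8613 bases for DSP, 22383 for DST and 14052 for PLEC. Once each library's trend with coding length was taken out, log2 fold changes were 0.10 for DSP (adjusted p = 0.75), 0.30 for DST (0.071) and -0.27 for PLEC (0.17), so all 3 calls ended and PLEC changed sign. With the date block as well, DST was called higher (0.29, adjusted p = 0.00064) and PLEC lower (-0.28, adjusted p = 0.0043). KRT81, with 1515 coding bases, kept a log2 fold change of -0.75 (adjusted p = 0.00037) under the same correction. The call on PLEC also ended without any single library (adjusted p from 0.0545 to 0.36), and that on DSP with strongly adherent cells of 6 March left out (0.13). The plaque protein JUP, plakoglobin, had a log2 fold change of 0.00 (SE 0.10). Of 9 hemidesmosome genes, DST and PLEC again rose and 0 fell, with a median of 0.05, and 3 rose and 1 fell with the date block. The laminin chain LAMA3 had a log2 fold change of 0.28 (SE 0.08, adjusted p = 0.084), or -0.14 (adjusted p = 0.57) with the length trend removed.

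Other filament proteins were not called. Of 14 genes of other intermediate filaments, 8 were tested, 0 rose and 0 fell, with a median log2 fold change of 0.01 and the smallest adjusted p 0.55 for the lamin LMNB1 (0.14, SE 0.09). The neural filament protein nestin, NES, had a log2 fold change of 0.18 (SE 0.16), and VIM one of -0.08 (SE 0.08, adjusted p = 0.76). Against VIM reads, KRT8 reads were 0.232, 0.222 and 0.244 in weakly adherent cells of 6, 12 and 15 March and 0.274 and 0.231 in strongly adherent cells of 6 and 15 March, with overlap between the groups.

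Of 16 genes that bind or regulate keratins, all tested, 0 rose and 0 fell, with a median log2 fold change of -0.05. With the date block 1 fell, where 5.28% of all genes tested were called lower. SFN, a 14-3-3 protein that binds keratins, differed by -0.27 on the log2 scale (SE 0.08; edgeR adjusted p = 0.087, or 0.0069 with the date block). FAM83H, which organises keratin filaments by recruiting casein kinase, had 22.7 ± 1.71 CPM in weakly adherent (SD, n = 3) and 28.4 ± 1.98 CPM in strongly adherent cells (SD, n = 2), which is -0.32 on the log2 scale (SE 0.10, adjusted p = 0.14). TCHP, trichoplein, which binds KRT8 and KRT18 filaments, had -0.19 (SE 0.08, adjusted p = 0.30).

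**Figure D5:**
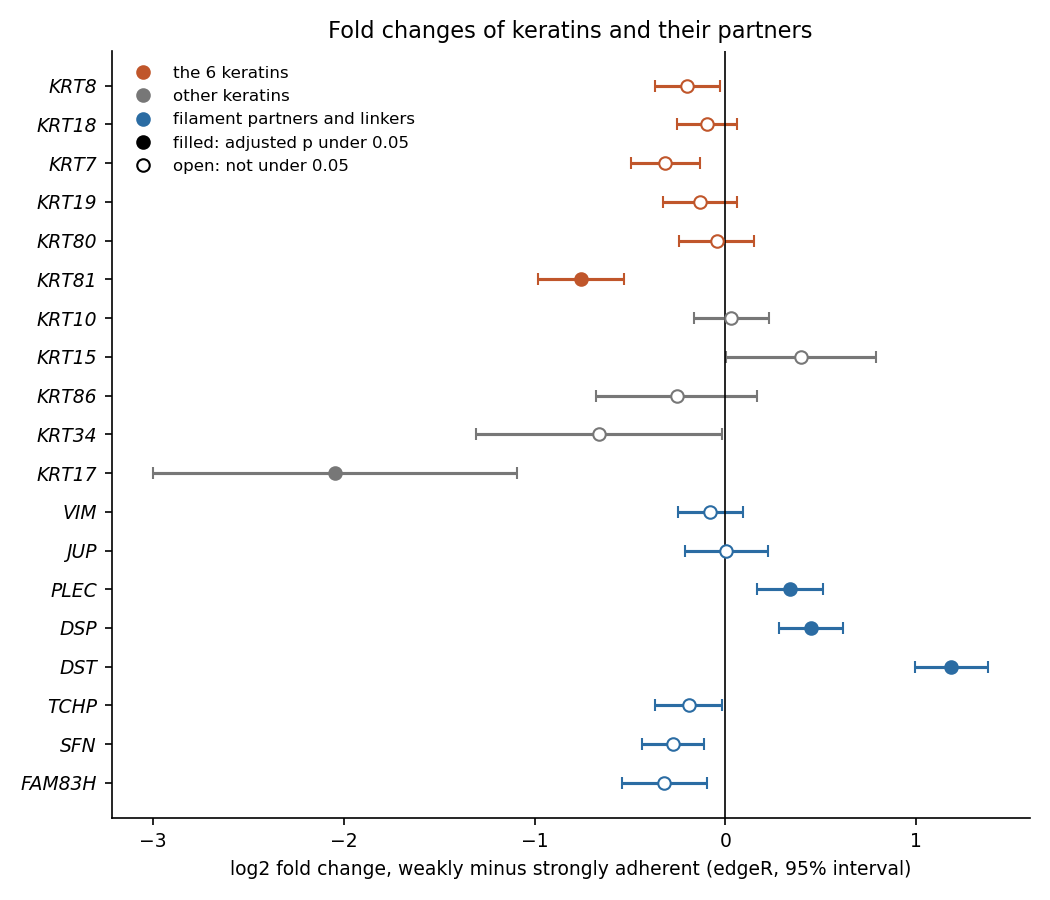
Points give the log2 fold change (weakly minus strongly adherent, edgeR) with its 95% interval for the 6 keratins (orange), the other tested keratins (grey) and filament partners and linkers (blue), filled where the adjusted p was under 0.05. KRT81 (-0.76) and KRT17 (-2.05) are filled on the left and PLEC, DSP and DST (0.34 to 1.19) on the right, of which PLEC turned to -0.27 with the length trend removed.

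Not all of the 6 keratins shared a pattern over the 5 libraries. Likeness was measured as the root mean square difference of log2 CPM, each gene centred on its own mean, over the 5 libraries, where 0 is an identical pattern. KRT8 and KRT18 differed by 0.06, KRT18 and KRT80 by 0.07 and KRT8 and KRT7 by 0.07. KRT7 and KRT80 differed by 0.16, KRT19 and KRT80 by 0.15, and KRT81 from the other 5 by 0.26 to 0.41. The measure grows with a gene's own spread. A flat pattern would differ by 0.07 from KRT18, 0.12 from KRT8, 0.18 from KRT7, 0.12 from KRT19, 0.11 from KRT80 and 0.39 from KRT81. The small distances of KRT18 therefore show little shared pattern, and those of KRT81 largely restate its larger change. KRT19 and KRT80 lay further from each other than either lay from a flat pattern. Among the 9338 other genes whose mean reached 10 CPM, those closest to KRT81 were IL6 (0.04), CPA4 (0.06), IL7R (0.10) and DKK1 (0.10), whose lower values in weakly adherent cells follow from that choice. IL6 encodes a cytokine, CPA4 a carboxypeptidase, IL7R a cytokine receptor and DKK1 a Wnt antagonist. Closest to KRT7 was FAM83H, at 0.0073, the keratin-organising gene described above. Closest to the mean pattern of the 6 were MAFF (0.01), KAZN (0.02), CCHCR1 (0.02), FAM213B (0.02) and MEST (0.02), none of which passed edgeR's test (adjusted p from 0.14 to 0.18). KAZN encodes kazrin, a protein found at desmosomes. With 5 libraries, many genes come close to any pattern, so these neighbours are a description of the libraries.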

How the data were processed

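Per the labels' protocols, total RNA was purified on RNeasy columns, TruSeq Stranded libraries were prepared from it, and 50-base single-end reads were sequenced. Per the submitters' processing notes, hg19 was the build and the tools were STAR, HTSeq, cutadapt, DESeq2 and FastQC, with no versions. Annotation and strand setting are not given in the sources used. The authors deposited raw counts per gene symbol and log2 values, which equal log2(count / size factor + 1) to within 0.00052 reads, as checked on the file. HTSeq's summary lines name no gene and stayed out of library sizes. Of all reads, 16.0% to 16.8% were not unique, 6.49% to 8.08% overlapped no counted feature, 1.74% to 3.02% were not aligned and 1.10% to 1.16% were ambiguous. Reads with no feature made up 7.31%, 7.35% and 8.08% in weakly adherent cells of 6, 12 and 15 March. In strongly adherent cells of 6 and 15 March they made up 6.49% and 7.20%.

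All genes were fitted together with edgeR 4.0.16 in R 4.3.3 (TMM, filterByExpr, robust quasi-likelihood F test, Benjamini-Hochberg adjustment over 13297 genes, threshold 0.05). Fold changes are weakly over strongly adherent on the log2 scale; the SE and 95% interval follow from the F statistic. edgeR estimated a biological coefficient of variation of 7.91% and had 3 residual degrees of freedom. The members and lists were chosen with earlier results of these data known. Text names the 6 members, other keratins averaging 2 CPM or more, in each other list the 3 genes of smallest p among those averaging 2 CPM or more, VIM, DSP, JUP, PLEC and CDH1, and the 5 genes most like the members' pattern. Lists are described by counts and medians.

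Titles give dates, so libraries of the same date were taken as pairs. Their deviations from the group means correlated across genes at 0.34 on 6 March and 0.20 on 15 March; with 2 strongly adherent libraries these mirror each other and are a weak check. Replicates differed by more than sampling noise (chi-square over its degrees of freedom, 7.54 to 12.6). Alternatives were DESeq2 1.42.0 (size factors, Wald test), limma 3.58.1 (voom, and the deposited log2 values), other filters, the date block, removal of each library's trend with coding length (natural spline, 5 degrees of freedom, lengths for 88.4% of tested genes from GENCODE 29) and each library left out. Sequences and shared 50-base windows came from GENCODE 29 transcripts; the genome itself was not searched. Sequences were aligned with Biopython 1.88 and figures drawn with matplotlib 3.10.9.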

Additional observations from a re-analysis of the deposited data

Results flagged for a closer look

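Opposite signs on the shared dates were seen for 4 keratins. With 1 library per group and date, the difference between dates was not tested. The log2 CPM of the weakly minus the strongly adherent library was -0.1383 on 6 March and 0.02903 on 15 March for KRT19, and -0.05907 on 6 March and 0.02966 on 15 March for KRT80. It was 0.1319 on 6 March and -0.09323 on 15 March for KRT10, and -0.5716 on 6 March and 0.1197 on 15 March for KRT86, which had 65 to 99 reads in a library.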

How the results depend on the processing

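KRT81 kept its direction and its call in all 15 alternatives, with log2 fold changes from -0.84 to -0.67 and edgeR adjusted p from 0.0023 to 0.0097 with a library left out. KRT7, KRT8, KRT18 and KRT19 stayed negative in all 15, but with a library left out their log2 fold changes ran from -0.39 to -0.23, -0.29 to -0.098, -0.14 to -0.048 and -0.21 to -0.054, in that order. KRT7 was called in 5, KRT8, KRT18 and KRT19 in none. The members called lower were therefore 2 with DESeq2's Wald test, with no filter, with the date as a replicate block in edgeR or limma-voom, and with that block and the length trend removed, and 1 with any library left out. KRT80 turned to 0.089 with strongly adherent cells of 6 March left out and to 0.0055 with the length trend removed and the block.

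Over all genes, 235 were called higher and 122 lower, against 825 and 702 with the date block in edgeR, 670 and 538 with the random block, 601 and 694 with the length trend removed and the block, 127 were higher with the length trend removed, and 203 lower with no filter. With each library left out, 82 to 238 were higher and 34 to 103 lower, fewest without strongly adherent cells of 6 March. Where 1 strongly adherent library was left, it was assumed to vary like the other group. Of the genes on the lists, 4 were called, 12 with the date block, with or without the length trend removed, 10 with the random block, 7 with no filter and 2 to 4 with a library left out. Between dates DESeq2 called 203 genes. The KRT8 to KRT18 log2 ratio differed by -0.15 to -0.05 with a library left out. Signs of uncalled genes turned with a library left out for JUP (-0.12 to 0.14, with -0.033 when weakly adherent cells of 15 March were left out), CDH1 (-0.60 to 0.092) and KRT10 (-0.050 to 0.12). They turned with the length trend removed for JUP (-0.00016) and LAMA3 (-0.14, or -0.17 with the block as well), and with both for NES (-0.027). The called gene PLEC turned to -0.27 with the length trend removed and -0.28 with the block as well. The cause of these shifts was not tested. Counts of a few reads, as for KRT17, limit precision, and reads of shared keratin windows cannot be recovered from the table.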

Other observations

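Genes that set or mark epithelial identity were not called in the main edgeR fit. Of 22 such regulators, 15 were tested, 0 rose and 0 fell in edgeR, with a median log2 fold change of -0.15. With the date block 2 rose and 3 fell, where 6.2% of all genes tested were called higher and 5.28% lower. ELF3, an epithelial ETS factor, averaged 4.71 ± 0.60 CPM in weakly adherent (SD, n = 3) and 2.58 ± 0.75 CPM in strongly adherent cells (SD, n = 2), which is 0.87 on the log2 scale (SE 0.22; edgeR adjusted p = 0.058, or 0.00090 with the date block). ELF3 also passed in edgeR with no filter (adjusted p = 0.011) and with the length trend removed (0.030), and in limma on the deposited log2 values (0.042). It did not pass with DESeq2 size factors in edgeR (0.051), DESeq2's Wald test (0.059) or limma-voom (0.069). In edgeR it passed without weakly adherent cells of 6 March (0.035) and not without those of 12 March (0.14) or 15 March (0.15). KLF4, a factor of epithelial differentiation, had -0.26 (SE 0.09, adjusted p = 0.20, or 0.0029 with the block). EHF and KLF5 also fell with the block and were named after their values were seen. EHF averaged 124 ± 17.4 CPM in weakly adherent (SD, n = 3) and 143 ± 10.5 CPM in strongly adherent cells (SD, n = 2). Its log2 fold change was -0.21 (SE 0.11, edgeR adjusted p = 0.45), or -0.31 with the block (adjusted p = 8.4e-05). KLF5 had -0.21 (SE 0.13, adjusted p = 0.57), or -0.29 with the block (adjusted p = 0.015). Of the Snail repressors of epithelial genes, SNAI2 had -0.24 (SE 0.11, adjusted p = 0.35, or 0.31 with the block) and SNAI1 had 1.28 (SE 0.34, adjusted p = 0.078, or 0.0057 with the block). SNAI1 had 26, 45 and 53 reads in weakly adherent cells of 6, 12 and 15 March, against 19 and 16 in strongly adherent cells of 6 and 15 March. Its mean of 1.51 CPM is below the minimum for naming, and it was named after its values were seen. Of 8 markers used to check the line, 6 were tested and 0 passed, with a median of -0.06. Among them were the epithelial adhesion molecule EPCAM (0.22, SE 0.11), CD24 (0.21, SE 0.15) and CD44 (-0.14, SE 0.07).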
